A study of Mus musculus with 3 samples.

Results

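Barrier junction genes code for the proteins that seal the cleft between neighbouring cells. The 9 genes examined were Cldn5, Cdh5, Esam, Tjp1, Ocln, F11r, Cldn1, Cldn2 and Cldn3, chosen as a list by name, and all 9 were among the 17551 genes of the deposited table. Their mRNA was compared between the endothelial-like cells of deposited cluster 4 (295 of 4668 cells) and the choroid plexus-like cells of deposited cluster 1 (880 cells). The series used CITE-seq, in which antibody tags and mRNA are counted in the same single cell, on 4 mouse brains. Some brains carried metastases of the mouse mammary carcinoma line E0771, injected into the carotid artery about 2 weeks earlier, and the others were naive; all came from female C57BL/6 mice aged 2 to 3 months. Brains were digested with papain and enriched for mononuclear cells on a Percoll gradient, so vessel and choroid plexus cells are those that came through a preparation aimed at immune cells. Each brain had its own hashtag antibody and all were loaded as 1 pool, but no label or file used here ties a hashtag to a naive or a metastatic brain. Brains are therefore named by hashtag and serve as replicates, and no condition was compared.

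Blood vessels of the brain and the epithelium of the choroid plexus are barriers built in different ways. Brain endothelial cells close their clefts with continuous tight junctions rich in claudin-5 and with adherens junctions of VE-cadherin. The vessels inside the choroid plexus are fenestrated and leaky, and the barrier towards the cerebrospinal fluid lies in the epithelium, whose tight junctions carry other claudins. Occludin, junctional adhesion molecules and the scaffold protein ZO-1 are parts of both kinds of junction.

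Claudins stood on both sides of the contrast. The 250 bases upstream of the RefSeq start of the endothelial claudin gene and of 2 claudin genes of the epithelium are therefore shown first (RefSeq, GRCm38.p6, 5′ to 3′ on the strand of the gene). The windows are chr16:18776597-18776846 on the plus strand for Cldn5, chr16:26371840-26372089 on the minus strand for Cldn1 and chrX:139800558-139800807 on the plus strand for Cldn2. Capitals mark matches to the ETS core and to the TATA box.
Cldn5: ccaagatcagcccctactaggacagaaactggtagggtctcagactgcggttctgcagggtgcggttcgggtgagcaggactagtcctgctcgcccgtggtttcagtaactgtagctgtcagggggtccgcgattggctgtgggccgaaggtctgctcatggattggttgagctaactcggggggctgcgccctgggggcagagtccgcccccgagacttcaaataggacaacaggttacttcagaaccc
Cldn1: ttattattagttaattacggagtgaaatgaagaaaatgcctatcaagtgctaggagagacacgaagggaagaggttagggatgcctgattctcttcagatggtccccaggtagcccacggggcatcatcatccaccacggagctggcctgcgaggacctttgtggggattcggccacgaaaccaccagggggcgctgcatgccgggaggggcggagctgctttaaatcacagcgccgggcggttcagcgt
Cldn2: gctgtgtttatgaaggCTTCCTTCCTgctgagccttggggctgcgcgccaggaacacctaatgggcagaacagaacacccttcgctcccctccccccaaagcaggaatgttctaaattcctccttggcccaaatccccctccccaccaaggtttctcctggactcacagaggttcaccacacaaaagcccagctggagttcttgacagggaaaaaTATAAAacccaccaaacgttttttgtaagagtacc
The motifs searched on both strands were the ETS core AGGAAG, the SOX core AACAAT, the OTX core TAATCC and the TATA box TATAAA. They occurred in 29.5%, 9.42%, 6.25% and 12.4% of 32851 RefSeq windows of the same length. Windows were found for 7 of the 9 genes, all but Cdh5 and Esam, and only the Cldn2 window held a match. It held 2 overlapping ETS cores on the minus strand, 234 to 229 and 230 to 225 bases upstream, and a TATA box 35 to 30 bases upstream. A match is a string of letters and no evidence of binding. Cldn5 (chr16:18776847-18778262) and Cldn1 (chr16:26356645-26371839) lie on the same chromosome and differed in opposite directions between the cell types compared below.

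The clusters were checked against marker genes that hold no junction gene. The 12 endothelial markers, among them Flt1, Tie1 and Ly6c1, summed to 55.7 UMIs (unique molecular identifiers, which count captured mRNA molecules) per 10000 UMIs in cluster 4, against 2.58 in cluster 1. The 8 choroid plexus markers, among them Folr1, Kl and Kcnj13, summed to 6.71 in cluster 4 and to 50.4 in cluster 1. Clusters 3 and 6 are called immune because their median CD45 tag counts were 7090 and 2908, against 31 to 69 in the other clusters. Median depth was 3896 UMIs per cell in cluster 4 and 7282.5 in cluster 1. Ttr, the thyroid hormone carrier secreted by the choroid plexus, stood at 539 ± 212 per 10000 UMIs in cluster 4 and at 3173 ± 156 in cluster 1 (SD, n = 4 brains). The median gene was 0.26 higher on the log2 scale in cluster 4 than in cluster 1, and small differences are to be read against that shift. The part of Ttr and of depth in the shift was not tested.

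The junction genes fell into an endothelial set, an epithelial set and a shared set. Cldn5, Cdh5, Esam and Tjp1 were higher in cluster 4 than in cluster 1, with no overlap over the 4 brains and a mean difference of more than 2-fold. Cldn1, Cldn2 and Cldn3 were lower in cluster 4 than in cluster 1 by the same rule, which takes the fold over the mean of the brains. Ocln and F11r did not meet the rule in either direction. Of 8640 genes seen in at least 5% of the cells of clusters 4 and 1 together, 12.5% were higher in cluster 4 and 6.57% lower by this rule, so 4 and 3 of 9 genes stand beside those shares. These cluster values are a description with no test, since the authors' clusters were made from gene values.

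**Figure D1:**
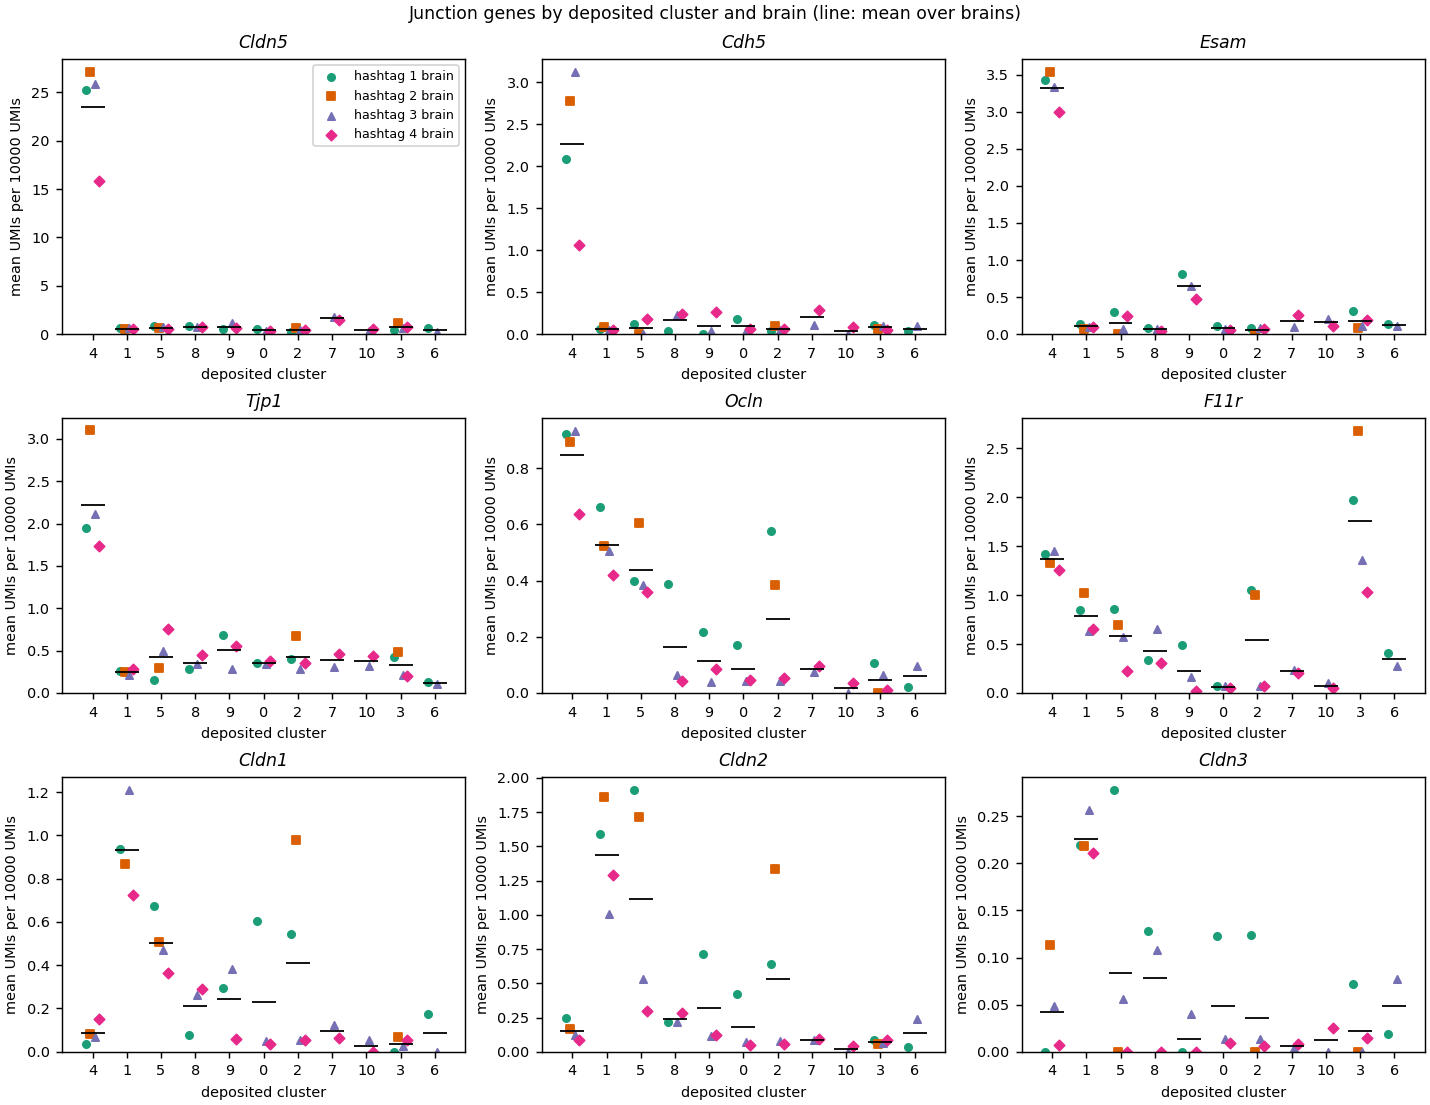
Mean UMIs per 10000 UMIs of each junction gene (y axis, from 0) in each deposited cluster (x axis) and brain with at least 20 cells of that cluster; points are brains and lines are means over brains. Cluster 4 is endothelial-like and cluster 1 choroid plexus-like: Cldn5, Cdh5, Esam and Tjp1 peak in cluster 4, F11r in clusters 3 and 4, and Cldn1, Cldn2 and Cldn3 in cluster 1, with Cldn2 also high in cluster 5.

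Cldn5, the claudin that dominates the tight junction of brain endothelium, averaged 25.3, 27.1, 25.8 and 15.8 UMIs per 10000 in cluster 4 of the brains with hashtags 1 to 4, against 0.60, 0.51, 0.70 and 0.56 in cluster 1. Every cluster 4 value lay far above every cluster 1 value, and the hashtag 4 brain was the low one among the cluster 4 values. The log2 difference, cluster 4 minus cluster 1, was 5.06 ± 0.37 (SD, n = 4; log2 of the level plus 0.1). Cluster 7 came next after cluster 4 with 1.65 ± 0.19 (n = 2), and all 4 brains of cluster 4 were above it.

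Cdh5, which codes for VE-cadherin of the endothelial adherens junction, averaged 2.09, 2.77, 3.12 and 1.06 per 10000 in cluster 4, against 0.07, 0.08, 0.05 and 0.05 in cluster 1 of the same brains. The hashtag 4 brain was again the lowest in cluster 4, and still well above all cluster 1 values. Esam, an immunoglobulin-type adhesion molecule of endothelial tight junctions, averaged 3.43, 3.53, 3.33 and 2.99 in cluster 4, against 0.14, 0.08, 0.10 and 0.10 in cluster 1. Its spread over brains was small, with an SD of 0.23 around 3.32 in cluster 4. The log2 differences of Cdh5 and Esam were 3.75 ± 0.62 and 4.06 ± 0.23 (SD, n = 4).

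Tjp1 codes for ZO-1, the scaffold that ties claudins and occludin to actin in both epithelial and endothelial junctions. It averaged 1.95, 3.10, 2.11 and 1.74 per 10000 in cluster 4 and 0.26, 0.24, 0.22 and 0.29 in cluster 1, with a log2 difference of 2.69 ± 0.42 (SD, n = 4). The hashtag 2 brain was the high one in cluster 4, and the groups did not overlap. Cluster 1 ranked last but 1 of 11 clusters for Tjp1, above immune cluster 6 at 0.12 ± 0.02 (n = 2). Cluster 9 came second with 0.51 ± 0.21 (n = 3), and its values overlapped those of clusters 2 and 5.

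Ocln, the gene of occludin, averaged 0.92, 0.89, 0.93 and 0.64 per 10000 in cluster 4 and 0.66, 0.52, 0.51 and 0.42 in cluster 1. Cluster 4 was the higher in each brain, but the value of the hashtag 4 brain in cluster 4 fell below that of the hashtag 1 brain in cluster 1, so the groups overlapped. F11r codes for junctional adhesion molecule A, which leukocytes and platelets also carry, and averaged 1.42, 1.33, 1.45 and 1.26 in cluster 4, against 0.85, 1.03, 0.63 and 0.65 in cluster 1. These F11r values did not overlap, but the mean difference over brains was less than 2-fold. The log2 difference was 0.74 ± 0.31 for F11r and 0.59 ± 0.16 for Ocln (SD, n = 4). Counted per 10000 UMIs other than Ttr, a setting chosen after seeing the data, Ocln stood at 0.89 in cluster 4 and 0.79 in cluster 1, and F11r at 1.44 in cluster 4 and 1.15 in cluster 1.

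F11r was highest in immune cluster 3, at 1.76 ± 0.73 (SD, n = 4), whose range of 1.03 to 2.68 enclosed that of cluster 4. Ocln was highest in cluster 4, with cluster 1 and the unnamed cluster 5 (0.44 ± 0.11) next, and neighbours in that order overlapped. In immune clusters 3 and 6 Ocln was at 0.05 and 0.06.

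The claudins of the epithelium showed the mirror image. Cldn1, a sealing claudin, averaged 0.04, 0.08, 0.07 and 0.15 per 10000 in cluster 4, against 0.93, 0.87, 1.21 and 0.73 in cluster 1. Cldn2, whose protein forms cation and water channels in leaky epithelia, averaged 0.25, 0.16, 0.13 and 0.08 in cluster 4, against 1.59, 1.86, 1.003 and 1.29 in cluster 1. For both genes every cluster 1 brain lay far above every cluster 4 brain, and the log2 differences were -2.50 ± 0.58 for Cldn1 and -2.60 ± 0.36 for Cldn2 (SD, n = 4).

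Cldn3, another sealing claudin, averaged 0, 0.11, 0.05 and 0.01 in cluster 4 and 0.22, 0.22, 0.26 and 0.21 in cluster 1, with a log2 difference of -1.26 ± 0.49 (SD, n = 4). The whole of cluster 4 held 5 Cldn3 UMIs, 12 Cldn1 UMIs and 17 Cldn2 UMIs, against 156, 622 and 959 of these genes in cluster 1. At the depth of the hashtag 1 brain no Cldn3 UMI was counted in its 72 cells of cluster 4. Cluster 5, with a median mitochondrial share of 14.8%, came second for all 3 genes. Its brains lay below those of cluster 1 for Cldn1, at 0.50 ± 0.13, and overlapped them for Cldn2, at 1.12 ± 0.82, and for Cldn3, at 0.08 ± 0.13 (SD, n = 4).

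Depth sets how many cells show a UMI, so every cell was thinned to 2495 UMIs, the total of the shallowest cell. After thinning Cldn5 was seen in 80% of cells of cluster 4 (exact binomial 95% interval 75.0% to 84.4%) and in 11.9% of cells of cluster 1 (9.86% to 14.3%). Before thinning the shares were 94.2% in cluster 4 and 29.9% in cluster 1. Immune clusters 3 and 6, which should lack claudin-5, showed Cldn5 in 12.1% and 13.5% of thinned cells, so the share in cluster 1 was at background. The intervals cover counting error only.

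Cdh5 and Esam were seen in 36.6% and 47.5% of thinned cells of cluster 4, against 1.93% and 2.95% in cluster 1. The shares in cluster 1 were no higher than in immune cluster 3, at 1.98% for Cdh5 and 3.71% for Esam. Tjp1 was seen in 35.9% of thinned cells of cluster 4 and in 5% of cluster 1, which lay between 7.43% in immune cluster 3 and 3.59% in immune cluster 6. Ocln, in contrast, was seen in 17.6% of thinned cells of cluster 4 and in 12.7% of cluster 1, both above 1.24% and 0.897% in the immune clusters.

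F11r was seen in 24.7% of thinned cells of cluster 4 and 19.1% of cluster 1, beside 24.5% in immune cluster 3 and 7.62% in immune cluster 6. Cldn1, Cldn2 and Cldn3 were seen in 2.71%, 3.39% and 1.02% of thinned cells of cluster 4, against 20.2%, 29.3% and 6.02% of cluster 1. In immune clusters 3 and 6 the shares were 0.743% and 2.24% for Cldn1, 1.98% and 0.448% for Cldn2, and 0.495% and 0% for Cldn3. The cluster 4 shares were higher than these, with overlapping intervals. Overlap cannot settle whether cluster 4 held these genes above background at this depth. Unthinned shares were 3.73%, 5.42% and 1.69% for Cldn1, Cldn2 and Cldn3 in cluster 4, against 46.0%, 58.9% and 14.9% in cluster 1.

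**Figure D2:**
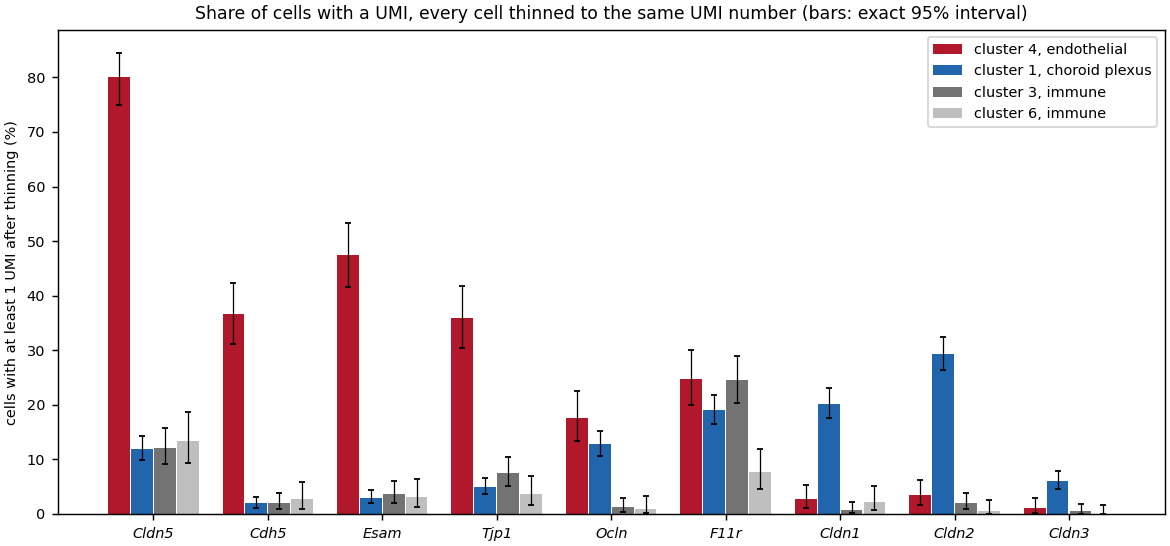
Share of cells with at least 1 UMI of each junction gene (y axis, percent, from 0) after every cell was thinned to 2495 UMIs, with exact binomial 95% intervals; bars from left to right are clusters 4 (endothelial-like), 1 (choroid plexus-like), 3 and 6 (both immune). Cldn5, Cdh5, Esam and Tjp1 stand out in cluster 4, where Cldn5 reaches 80%, and F11r stands at 24.7%, 19.1% and 24.5% in clusters 4, 1 and 3.

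The endothelial genes were often found in the same cell. Of the 295 cells of cluster 4, 112 held a UMI of each of Cldn5, Cdh5 and Esam, and 8 held none of them. Of the 880 cells of cluster 1, 11 held all 3 and 571 held none. Of the epithelial claudins Cldn1, Cldn2 and Cldn3, 266 cells of cluster 4 held none and 0 held all 3, against 180 and 40 of the cells of cluster 1. The cells of cluster 4 without a Cldn5 UMI, only 5, 5, 2 and 5 in the brains with hashtags 1 to 4, held the endothelial gene Ly6c1 at 15.1, 7.96, 23.4 and 8.96 per 10000, against 21.7, 25.5, 29.9 and 12.1 in its cells with one. Flt1, a VEGF receptor gene of endothelium, stood at 3.42, 5.39, 2.45 and 1.36 in the cells without and at 10.9, 10.03, 6.45 and 4.57 in the cells with a Cldn5 UMI. Ttr stood at 1973, 862, 74.7 and 475 in the cells without and at 623, 715, 358 and 352 in the cells with a Cldn5 UMI. In the few cells without Cldn5, Ly6c1 and Flt1 were lower in each brain, and Ttr was higher in all but the hashtag 3 brain. No test was made.

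Outside the cell type that expresses it most, a gene's ratio to another gene of the same cell type shows whether both came in fixed proportion. Cldn2 stood at 0.258 UMIs per 1000 Ttr UMIs in cluster 4 (exact Poisson 95% interval 0.15 to 0.413) and at 0.45 in cluster 1 (0.422 to 0.480). In clusters 0, 2, 3 and 7, the ratio was 0.342, 0.366, 0.331 and 0.412, and it was lower in cluster 8 at 0.140 (0.0853 to 0.216). Cldn1 stood at 0.182 per 1000 Ttr UMIs in cluster 4 (0.0941 to 0.318) and 0.292 in cluster 1 (0.270 to 0.316), and Cldn3 stood at 0.0759 in cluster 4 (0.0246 to 0.177) and 0.0733 in cluster 1 (0.0622 to 0.0857). Within counting error, the few epithelial claudin UMIs of cluster 4 were no more frequent per Ttr UMI than in cluster 1.

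The shared genes broke that proportion. Ocln stood at 1.53 per 1000 Ttr UMIs in cluster 4 (1.25 to 1.86), against 0.165 in cluster 1 (0.148 to 0.183). F11r stood at 2.78 in cluster 4 (2.39 to 3.21) and 0.244 in cluster 1 (0.223 to 0.266), and at 4.97 in immune cluster 3. Per Ttr UMI, both genes were many times as frequent in cluster 4 as in cluster 1.

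Measured against Ly6c1, an endothelial surface antigen gene, Cldn5 stood at 1276 UMIs per 1000 in cluster 4 (1232 to 1321) and 788 in cluster 1 (713 to 869), and at 667 to 969 in the other clusters. Cdh5 stood at 126 in cluster 4 (112 to 141) and 92.3 in cluster 1 (67.8 to 123). Esam stood at 175 in cluster 4 (159 to 192) and 153 in cluster 1 (121 to 191), but at 505 (377 to 662) in cluster 9. The mural genes, 7 in number with Acta2 and Rgs5 among them, summed to 5.52 per 10000 in cluster 4 and to 41.6 in cluster 9. Esam ranked next after cluster 4 in cluster 9, at 0.64 ± 0.17 per 10000 (SD, n = 3), and all its brains lay above those of cluster 7, which came next. Tjp1 stood at 121 per 1000 Ly6c1 UMIs in cluster 4, 391 in cluster 1, 663 in cluster 0 and 699 in cluster 9.

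**Figure D3:**
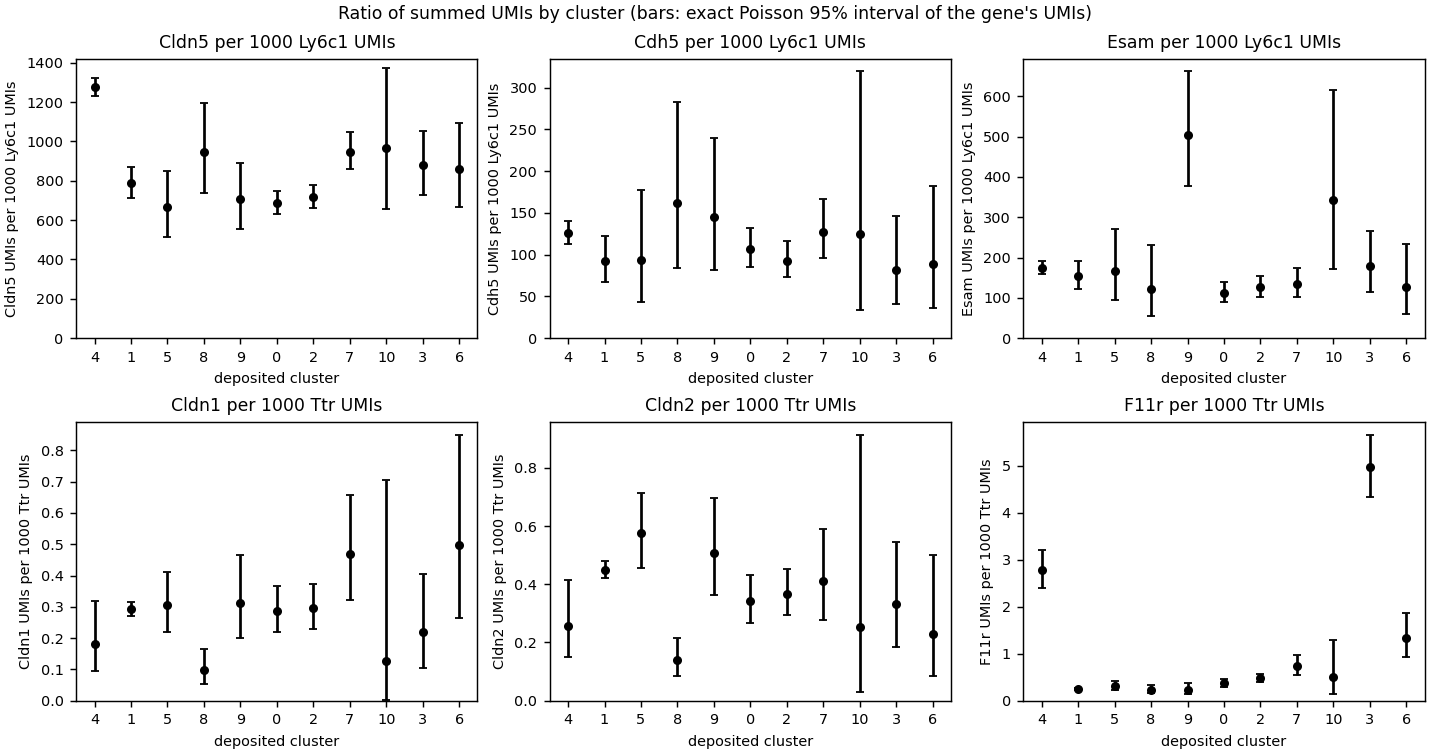
Ratio of summed UMIs in each deposited cluster (x axis): Cldn5, Cdh5 and Esam per 1000 Ly6c1 UMIs (upper row) and Cldn1, Cldn2 and F11r per 1000 Ttr UMIs (lower row), with exact Poisson 95% intervals of the junction gene's UMIs and y axes from 0. Cldn1 and Cldn2 keep close to 1 ratio in most clusters, while Esam stands out in cluster 9 and F11r in clusters 3 and 4.

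To test the contrast without clusters made from these genes, cells were classed by the marker genes alone. An endothelial-marker cell had UMIs of at least 3 of the 12 endothelial markers and at most 1 of the 8 choroid plexus markers, and a choroid-marker cell the other way round. The endothelial-marker class held 68, 45, 180 and 269 cells in the brains with hashtags 1 to 4, against 365, 175, 185 and 244 choroid-marker cells. Of the 562 endothelial-marker cells 191 lay in cluster 4, and 158 and 102 lay in clusters 0 and 2, whose median depths were 13009 and 18775 UMIs. The endothelial markers summed to 3.06 and 2.70 per 10000 UMIs in clusters 0 and 2, against 55.7 in cluster 4. Carcinoma-associated markers summed to 7.02 and 5.93 in clusters 0 and 2, against 2.57 in cluster 4. Most cells of the endothelial-marker class thus lay outside cluster 4, and limma values by this first definition describe a mixed class. The part of the cells outside cluster 4 in those values was not tested. A second definition, chosen after seeing where the endothelial-marker cells lay, counted markers after thinning each cell to 2495 UMIs. By it 183 of 254 endothelial-marker cells lay in cluster 4, and 724 of 1085 choroid-marker cells lay in cluster 1.

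By limma on log2 levels with the brain as a block, Cldn5, Cdh5, Esam and Tjp1 rose and Cldn1, Cldn2 and Cldn3 fell in endothelial-marker cells relative to choroid-marker cells. Ocln and F11r did not pass. Among the 8914 genes tested 31.4% were called higher and 12.7% lower at a Benjamini-Hochberg adjusted p of 0.05, so calls were common, and a call alone says little about these genes. Their sizes say more: the median of all genes was 0.30, against 2.1 to 4.67 for the 4 genes that rose and -1.29 to -3.38 for the 3 that fell. The count of 3928 genes called became 2300 without the hashtag 1 brain and 1473 when cells were kept only if at least 80% of the hashtag counts belonged to the assigned one.

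Cldn5 averaged 23.1, 28.5, 9.86 and 5.37 per 10000 in endothelial-marker cells, against 0.41, 0.38, 0.62 and 0.39 in choroid-marker cells. The endothelial-marker values of the brains with hashtags 3 and 4, where few of these cells lay in cluster 4, were the low ones, and no values overlapped. The limma log2 difference of Cldn5 was 4.67 (SE 0.37, adjusted p = 3.96e-05), and 5.38 (SE 0.14) with markers counted in thinned cells.

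Cdh5 averaged 1.85, 3.00, 1.21 and 0.54 in endothelial-marker cells and 0.03, 0.06, 0.03 and 0.03 in choroid-marker cells (limma log2 difference 3.46, SE 0.30, adjusted p = 6.33e-05). Esam averaged 3.20, 3.74, 1.20 and 1.05 in endothelial-marker cells and 0.13, 0.07, 0.11 and 0.06 in choroid-marker cells (limma log2 difference 3.45, SE 0.29, adjusted p = 6.26e-05). Tjp1 averaged 1.74, 3.27, 1.01 and 0.80 in endothelial-marker cells and 0.23, 0.31, 0.24 and 0.30 in choroid-marker cells (limma log2 difference 2.1, SE 0.28, adjusted p = 0.000578). All 3 genes were higher in endothelial-marker cells in 4 of 4 brains with no overlap.

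Cldn1 was at 0, 0, 0.03 and 0.04 in endothelial-marker cells, against 0.74, 0.96, 0.81 and 0.59 in choroid-marker cells (limma log2 difference -2.89, SE 0.23, adjusted p = 4.19e-05). Cldn2 was at 0, 0, 0.05 and 0.02 in endothelial-marker cells, against 1.3, 1.81, 0.82 and 0.80 in choroid-marker cells (limma log2 difference -3.38, SE 0.29, adjusted p = 6.26e-05). Cldn3 was at 0, 0, 0.03 and 0 in endothelial-marker cells, against 0.18, 0.19, 0.16 and 0.11 in choroid-marker cells (limma log2 difference -1.29, SE 0.18, adjusted p = 0.000741). Each was lower in endothelial-marker cells in 4 of 4 brains, and with so many values at or near 0 the size of these differences depends on the 0.1 added before the log. Endothelial-marker cells were allowed at most 1 choroid plexus marker, so the rule itself selected against cells holding choroid plexus mRNA. Mean Cldn1, Cldn2 and Cldn3 were 0.02, 0.02 and 0.007 in these cells, against 0.08, 0.15 and 0.04 in cluster 4, which has no such limit. The part of the rule in these differences and their adjusted p was not tested. At such levels Cldn1, Cldn2 and Cldn3 could pass the filter on cells with a UMI only through choroid-marker cells. That filter thus fixed their direction, and the adjusted p values are no test of it.

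Ocln averaged 0.78, 0.85, 0.35 and 0.21 in endothelial-marker cells and 0.52, 0.50, 0.36 and 0.33 in choroid-marker cells, higher in 2 of 4 brains (limma log2 difference 0.16, SE 0.22, adjusted p = 0.577). Its direction turned with the scaling, to -0.20 with median-of-ratios size factors, and without the hashtag 2 brain the difference was -0.00376. On summed counts Ocln was called lower, at -1.10 by edgeR (adjusted p = 0.0199) and -1.05 by DESeq2 (adjusted p = 0.0208). F11r averaged 1.25, 1.45, 0.65 and 0.46 in endothelial-marker cells and 0.72, 0.88, 0.46 and 0.43 in choroid-marker cells, higher in 4 of 4 brains (limma log2 difference 0.47, SE 0.17, adjusted p = 0.0520). Without the hashtag 4 brain F11r passed (0.60, adjusted p = 0.0484 by limma), with size factors it was at 0.08, and on summed counts with edgeR it turned to -0.46.

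With markers counted in thinned cells both genes passed, Ocln at 0.62 (SE 0.19, limma adjusted p = 0.0141) and F11r at 0.92 (SE 0.18, limma adjusted p = 0.000517), each higher in 4 of 4 brains. In that fit 33.7% of 8171 genes were called higher and 16.7% lower, beside 6 and 3 of the 9 junction genes. With size factors 14.2% were called higher and 19% lower, beside 4 and 3 of 9. The share of calls that were higher went down to 42.8% under size factors, against 71.2% in the levels per 10000, and that scaling moved the median of all genes to 0.01. The other 7 junction genes passed in the same direction in every alternative in which they were tested. Clusters 4 and 1 are among these alternatives and count as description only.

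**Figure D4:**
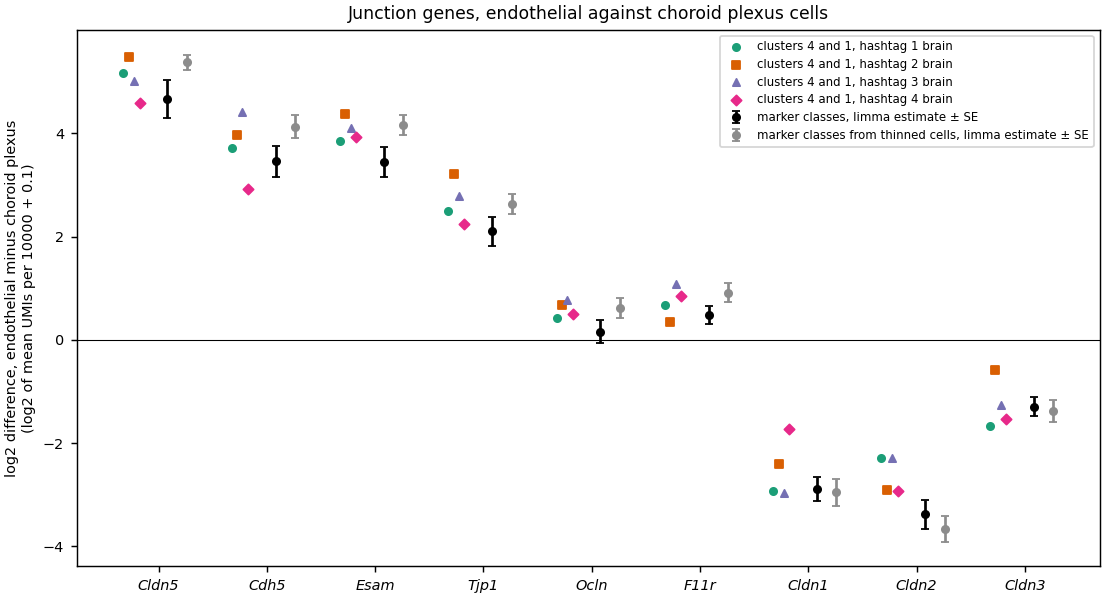
Log2 difference of each junction gene (y axis; level per 10000 plus 0.1, endothelial minus choroid plexus) between clusters 4 and 1 in each brain (coloured points, no test) and between marker classes by limma (black, and grey for thinned cells, both ± SE). The 4 endothelial genes lie between 2.1 and 5.47 above 0, Ocln and F11r lie between 0.16 and 1.08, and Cldn1, Cldn2 and Cldn3 lie below 0.

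Markers of other cell types differed between the classes too. In cluster 4 the 7 mural markers summed to 1.75 to 8.60 per 10000 over brains, against 0.932 to 1.11 in cluster 1, and 3 of the 5 tested by limma rose between the marker classes, 2 with size factors and 5 with thinned markers. Of all genes 31.4%, 14.2% and 33.7% were called higher in these 3 fits. The 5 leukocyte markers summed to 2.56 to 3.74 in cluster 4 and 1.58 to 2.45 in cluster 1, and 2 of 5 rose, 0 with size factors and 5 with thinned markers, the fit in which Ocln and F11r passed. The 3 red cell markers summed to 3.38 to 66.4 in cluster 4 and 1.84 to 5.48 in cluster 1, and both that were tested rose. The 4 carcinoma-associated markers summed to 1.91 to 4.12 in cluster 4 and 2.52 to 3.82 in cluster 1, and Rhox5 rose, Krt18 fell, Krt8 did not pass and Epcam was at 0 in cluster 4. The 4 platelet markers summed to 0.0920 to 0.205 in cluster 4 and 0.0523 to 0.103 in cluster 1, and none could be tested. Of the meningeal and the ependymal lists 1 of 2 tested genes fell in each, Ptgds at -3.09 and Foxj1 at -2.004. The other 2, Col1a2 at -0.23 and Rarres2 at 0.56, did not pass, and with thinned markers Rarres2 rose, at 0.83. The meningeal genes Dcn, Lum, Col1a1 and Slc47a1 could not be tested. They averaged 0.60, 0.16, 0.09 and 0.08 per 10000 in endothelial-marker cells, against 0.06, 0.02, 0.01 and 0.01 in choroid-marker cells. Each was higher in endothelial-marker cells in 4 of 4 brains. The part of these cells in the junction gene values was not tested.

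Other junction genes came from a list of 62 by name. Of the 51 measured ones, 29 could be tested by limma, and 11 rose, 6 fell and 12 did not pass, with a median log2 difference of 0.22 beside 0.30 for all genes. Over all genes 31.4% were called higher and 12.7% lower, and the counts of the list are to be read against those shares. With size factors 6 rose and 10 fell, beside 14.2% and 19% of all genes, and Cldnd1, Amotl1, Pard3, Jup and Gja1 no longer passed. The adhesion molecules of endothelium rose most: Pecam1 by 3.27, Icam2 by 2.60 and Jam2, the gene of junctional adhesion molecule B, by 2.53. Lsr, which codes for angulin-1 of tricellular junctions, was 1.69 higher, the gap junction genes Gja4 and Gja1 were 1.34 and 1.12 higher, and the desmosome and adherens junction genes Pkp4 and Jup were 1.18 and 1.04 higher. Cldnd1 and Amotl1 were 0.88 higher each.

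Of the genes that fell, Crb3, an apical polarity gene, stood at -2.11, the desmosome genes Dsp and Dsg2 at -1.99 and -1.48, and the adhesion receptor gene Cxadr at -1.91. Cgnl1, the gene of paracingulin, stood at -1.22, and Tjp3, the gene of ZO-3, at -1.09. The catenin genes Ctnnb1, Ctnna1 and Ctnnd1, which serve adherens junctions of all kinds, did not pass, at 0.26, -0.37 and 0.22. With size factors they stood at -0.17, -0.77 and -0.09, and Ctnna1 then passed as lower, while with thinned markers Ctnnb1 passed as higher, at 0.48 (limma adjusted p = 0.0182).

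**Figure D5:**
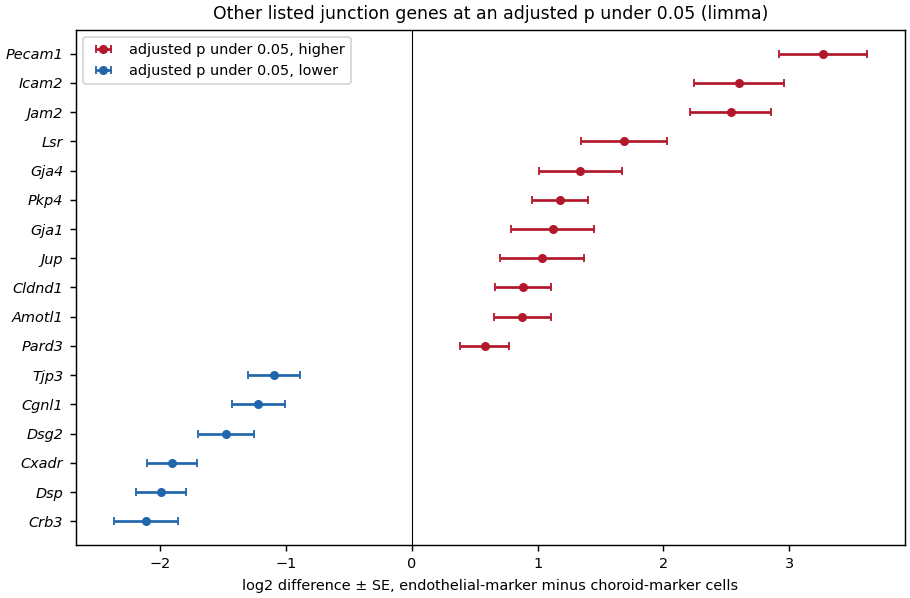
Log2 difference ± SE by limma (x axis, endothelial-marker minus choroid-marker cells) of the other listed junction genes that passed the test, sorted by size. The 11 genes in red rose, led by Pecam1 at 3.27, and the 6 in blue fell, led by Crb3 at -2.11.

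Genes known from the regulation and transport side of the barrier were read against the same shares, 31.4% of all genes called higher and 14.2% with size factors. All 5 tested regulators rose in both fits: Sox17 by 3.39, Fli1 by 2.68, Foxf2 by 2.46, Ets1 by 1.89 and Sox7 by 1.65 on the log2 scale. Of 9 tested genes of barrier endothelium 7 rose, or 6 with size factors, among them Foxq1 at 3.34, the efflux pump gene Abcb1a at 3.12 and the glucose transporter gene Slc2a1 at 2.75. Slco1c1 did not pass, at -0.49, and with size factors it fell, at -0.89. Plvap, which forms the diaphragms of fenestrated endothelium, was seen in 14 of 295 cells of cluster 4, and in 3.05% of its thinned cells, against 0.682% in cluster 1. Of 5 listed genes of fenestrated endothelium only Plpp3 could be tested. It did not pass, at 0.96, nor with size factors, at 0.65. With thinned markers Plpp3 rose, at 1.76, in a fit that called 33.7% of all genes higher.

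Over 35 profiles of a cluster in a brain with at least 20 cells, the levels most like that of Cldn5 among 9570 genes were those of Ly6c1 (Pearson r = 0.97), Sox18 (0.95), Slc39a8 (0.95), Grrp1 (0.95) and Slc35f2 (0.94). Those most like Cldn2 were Snap91 (0.97), Htr2c, the serotonin receptor gene of the choroid plexus (0.95), Cntn1 (0.95), Cadm2 (0.95) and Kl (0.95). Among the junction genes Cldn5 followed Cdh5 with 0.90, Esam with 0.86 and Tjp1 with 0.83, and Cldn2 followed Cldn1 with 0.85 and Ocln with 0.65. Cldn5 and Cldn2 stood at -0.15. The profiles share libraries, brains and cell types, so these values describe them and carry no test.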

How the data were processed

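Gene values were deposited by the authors on a natural log scale, as ln of 1 plus UMIs per 10000 UMIs of the cell. The submitters' processing notes name Cell Ranger 2.1, Seurat 2.3.4 and mm10 with no roles, and no source used here gives the filters on cells. The authors' table of cells, as deposited, gives UMI, hashtag and antibody tag counts, the mitochondrial fraction computed by the authors (shown as percent), hashtag class and cluster number. UMI counts were recovered from the values, and 99.8% were whole within 0.01. Cells had 2495 to 43038 UMIs, and the brains 410 to 2029 cells with 2529485 to 26196431 UMIs in all. All deposited cells were kept, and doublets were not called.

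Levels are means over cells of UMIs per 10000. Marker classes with at least 20 cells per brain were compared with limma 3.58.1 (R 4.3.3, intensity trend, brain as block) on log2(level + 0.1), over genes with a UMI in at least 5% of cells, with Benjamini-Hochberg adjustment over all genes tested. A gene near 0 in either class could pass this filter only through the other class, which fixes its direction. The adjusted p of such a gene is no test of direction. The fit has 3 residual degrees of freedom, and an SE is limma's moderated one. The replicate block pairs classes of the same animal, whose deviations correlated at 0.218 to 0.457. The brains were processed as 1 pool, and their spread holds any difference between naive and metastatic brains. edgeR 4.0.16 and DESeq2 1.42.0 on summed counts were alternatives, and the fits were tested on simulated data. The junction genes and lists were chosen with earlier results of these data known. All 9 are named, and of the other junction genes up to 10 per direction with the largest difference. The catenin genes and genes of the marker lists fall outside that rule and were named after their values were seen.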

Additional observations from a re-analysis of the deposited data

Results flagged for a closer look

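Among 27 sets of 4 brains (9 genes, each as levels in clusters 4 and 1 and as their log2 difference), 2 held a brain that lay apart from the rest. Chance marks about 1 in 20 such sets. Cldn5 in cluster 4 of the hashtag 4 brain stood at 15.8 per 10000 UMIs, where the other brains had 25.3 to 27.1, and its gap made up 0.838 of the range. Ocln in the same cells stood at 0.637, where the other brains had 0.893 to 0.933, with a gap of 0.864 of the range. The 86 cells of cluster 4 in that brain had a median of 8891.5 UMIs, where the other brains had 3087.5 to 4015, and Rhox5 at 2.27 per 10000, where the others had 0.960 to 1.26. Among cells of at most 8000 UMIs Cldn5 stood at 28.2, 31.2, 28.1 and 27.6 and Ocln at 1.03, 1.005, 1.15 and 1.24 in the brains with hashtags 1 to 4. Among cells with no Rhox5 UMI Cldn5 stood at 26, 32.3, 29.7 and 27.3. Both limits were chosen after seeing the data, and depth and Rhox5 were not tested apart.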

How the results depend on the processing

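The log2 differences of Cldn5, Cdh5, Esam, Tjp1, Cldn1, Cldn2 and Cldn3 between endothelial-marker and choroid-marker cells kept their direction and passed in each of the 14 or 15 alternatives in which each was tested. These alternatives include clusters 4 and 1, which were made from gene values, so a pass there is no test. Cldn1, Cldn2 and Cldn3 were near 0 in endothelial-marker cells, so the filter on cells with a UMI fixed their direction. Their passes are no test of that direction. Ocln was -1.10 with edgeR and -1.05 with DESeq2, both on summed counts with the replicate block, -0.20 with size factors, 0.59 in clusters 4 and 1, 0.62 with thinned markers, and -0.00376 to 0.38 with a brain left out. F11r was -0.46 with edgeR, -0.45 with DESeq2, 0.08 with size factors, 0.75 with 4 markers needed, 0.74 in clusters 4 and 1, 0.92 with thinned markers, and 0.39 to 0.60 with a brain left out. With genes seen in at least 20% of cells F11r kept its 0.47 and passed (limma adjusted p = 0.0364). Of 3928 genes called, 2796 higher and 1132 lower, the number was 2233 (1718 and 515) under that filter, 1473 (881 and 592) with cells of at least 80% own hashtag, 2259 (869 higher) with DESeq2, and 2300 to 3453 (1502 to 2388 higher) with a brain left out. The higher calls numbered 1092 with edgeR and 1267 with size factors. Without the replicate block 3118 genes were called, and no call of the 9 genes changed. The cause of these shifts was not tested. Of 90 alternative levels 27 moved by more than the SD over brains, and of 36 alternative shares 16 left their interval, 15 of them by thinning.

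Plvap-positive cells of cluster 4 numbered 4, 5, 3 and 2 per brain, under the minimum of 10, so the planned comparison with Plvap-negative cells was not run. Depth limits what can be said of Cldn1, Cldn2 and Cldn3 in cluster 4, and differences near the median shift of 0.30 depend on the scaling.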
